A study of Populus ussuriensis with 12 samples.

Results

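The genotype by PEG interaction in poplar roots is the response of PuC3H35 overexpressor roots to PEG minus the response of wild-type roots to PEG, measured gene by gene. It uses all 12 of the 12 libraries of the series, taken by their tissue label, in 4 groups of 3. The groups were PuC3H35-overexpressing (PuC3H35-OE) roots on 6% PEG6000 (libraries 1, 3 and 4), PuC3H35-OE roots on control medium (libraries 1, 2 and 5), wild-type (WT) roots on 6% PEG6000 (libraries 1, 2 and 3) and WT roots on control medium (libraries 1, 2 and 3). All plants were *Populus ussuriensis* grown in vitro on half-strength Murashige and Skoog medium, were 7 days old when moved, and spent 7 further days on the medium of their group. The promoter of the transgene, and whether the overexpressor libraries come from 1 line or several, are not stated in the sources at hand, so the effect of the gene and that of the transgenic material cannot be told apart.

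PEG6000 is a polymer that is largely kept out of living cells, and it lowers the water potential of the medium, so it is used to impose drought-like osmotic stress. Roots under such stress are known to adjust their gene expression through abscisic acid and other signals, with changes in transport, cell walls and protective proteins. PuC3H35 belongs to the CCCH zinc finger family, whose members often bind RNA and several of which act in plant stress responses. An interaction asks whether the genotypes respond to the stress alike, and is 0 for a gene whose PEG change is equal in both on the scale used, given below.

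The files give expression as FPKM (fragments scaled to gene length and library depth) for 35907 gene identifiers, none of them paired with a name or product. Genes are therefore given by identifier, without roles, and neither the level of PuC3H35 nor the markers of root tissue were checked. The interaction was tested with limma on log2(FPKM + 1) over the 24976 genes that reached 1 FPKM in 3 libraries or more, and a gene was called at a Benjamini-Hochberg adjusted p under 0.05. Interactions and changes below are log2 values on that scale, where 1 is a 2-fold change in FPKM + 1, and they understate the change of genes with low FPKM. Equal fold changes in FPKM from unequal low levels therefore do not give an interaction of 0. Depth was 10566926 to 12053894 recovered reads a library, with at least 1 read for 30432 to 31610 genes. The labels do not say that libraries came from separate plants or flasks, and the spread that the p-values rest on may then be technical.

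The interaction was called in 1873 genes, 7.50% of those tested. In 1000 genes (4.00%) the overexpressor's response was the more negative one, and in 873 (3.50%) it was the more positive one. The large interactions were mostly negative: 223 genes were at -2 or below and 31 at 2 or above, and 1109 had an absolute value of at least 1. Over all tested genes the median interaction was -0.01, with quartiles of -0.24 and 0.22. Without library 1 of WT on PEG 894 genes were called, without library 3 of WT on PEG 1054, and without library 3 of the WT controls 1229. In the fits that left out 1 library in turn, 815 of the 1873 genes were called in the same direction every time, 494 more negative and 321 more positive.

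The 1000 negative interaction genes were mostly raised by PEG in wild type. Their median PEG change was 0.12 in the overexpressor and 1.42 in wild type. Their median level was 6.38 FPKM in the overexpressor on PEG, 5.65 in overexpressor controls, 11.5 in WT on PEG and 2.51 in WT controls. The 873 positive ones were mostly lowered by PEG in wild type, with a median change of -0.10 in the overexpressor and -1.06 in wild type. Their median levels were 10.04 FPKM in the overexpressor on PEG, 11.1 in overexpressor controls, 6.90 in WT on PEG and 16.7 in WT controls. In both sets the WT groups were the extremes of the medians and the overexpressor groups lay between them. The genes were chosen with these libraries, so these medians describe the calls and are not separate evidence. In bulk roots, fewer cells of a type and less RNA per cell cannot be told apart.

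Among genes with an absolute interaction of at least 1 and 5 FPKM or more on average in the highest group, the most negative moderated t was that of Potri.010G072600.v3.1, a gene model with a recovered length of 417 bases. It had 1.03, 1.45 and 1.92 FPKM in the overexpressor on PEG, 0.223, 0.599 and 0.206 in overexpressor controls, 33.4, 27.0 and 27.6 in WT on PEG and 0, 0.214 and 0 in WT controls. The 3 WT libraries on PEG stood far above the other 9, and the WT controls held 1 read in all. The PEG change was 0.87 (SE 0.17, limma adjusted p 0.0207) in the overexpressor and 4.82 (SE 0.17, adjusted p 1.16e-08) in wild type, an interaction of -3.95 (SE 0.24, adjusted p 3.42e-05). The genotypes differed on PEG by -3.63 (limma adjusted p 8.03e-07), and on control medium by 0.32, which did not pass the test (adjusted p 0.204).

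Potri.014G029400.v3.1 had a similar interaction of -4.06 (SE 0.30, limma adjusted p 7.70e-05) that arose on both media. It had 12.8, 7.29 and 12.4 FPKM in the overexpressor on PEG, 12.9, 13.6 and 8.43 in overexpressor controls, 33.9, 32.0 and 28.1 in WT on PEG and 1.25, 1.32 and 0.725 in WT controls. The overexpressor libraries overlapped between the media, and all 6 of them lay above every WT control and below every WT library on PEG. PEG changed the gene by -0.11 in the overexpressor (limma adjusted p 0.896) and by 3.95 in wild type (adjusted p 1.99e-07). The overexpressor differed from wild type by -1.48 on PEG (limma adjusted p 0.00101) and by 2.58 on control medium (adjusted p 3.46e-05).

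Among positive interactions under the same limits, Potri.019G090200.v3.1 had the largest moderated t, with an interaction of 1.23 (SE 0.12, limma adjusted p 0.000287). It had 24.3, 24.3 and 21.6 FPKM in the overexpressor on PEG, 22.4, 22.0 and 22.0 in overexpressor controls, 21.7, 25.3 and 24.5 in WT on PEG and 51.4, 57.6 and 53.2 in WT controls. Only the WT controls stood apart, and the other 9 libraries covered a common range of 21.6 to 25.3 FPKM. The genotype difference was -0.02 on PEG (limma adjusted p 0.891) and -1.25 on control medium (adjusted p 1.42e-05).

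Potri.005G232400.v3.1 came next by moderated t, with an interaction of 2.68 (SE 0.28, limma adjusted p 0.000393). Its levels were 13.8, 18.1 and 29.4 FPKM in the overexpressor on PEG, 17.7, 17.8 and 16.5 in overexpressor controls, 8.77, 7.89 and 7.58 in WT on PEG and 44.1, 53.2 and 56.0 in WT controls. All overexpressor libraries fell between the WT groups without overlap, library 4 on PEG being the highest of them. PEG changed the gene by 0.16 in the overexpressor (limma adjusted p 0.814) and by -2.52 in wild type (adjusted p 3.43e-06). All 4 genes were called with the same sign under each of the 21 alternative settings tried. The settings refit the libraries in which these genes were picked as extreme, so this is a description and not separate evidence.

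**Figure D1:**
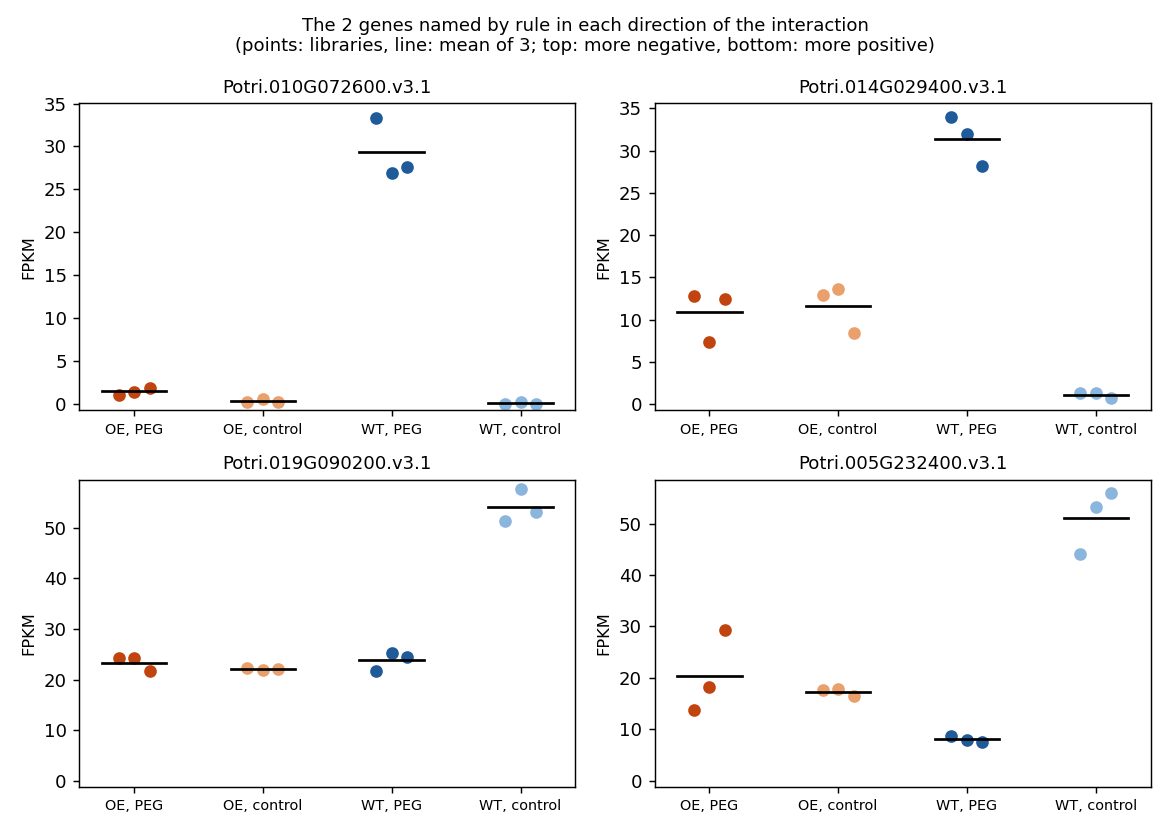
FPKM of the 2 genes named by moderated t in each direction of the interaction, 1 point per library and a line at the mean of 3, with groups of the overexpressor (OE) left of wild type (WT). In the upper panels WT on PEG is the high group at 27.0 to 33.9 FPKM, and in the lower panels the WT controls are, at 44.1 to 57.6 FPKM.

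An interaction equals the genotype difference on PEG minus the genotype difference on control medium, and these come from separate libraries. The classes by medium used here were chosen after values were seen. Of the 1000 genes with a more negative response, 421 (42.1%) were called on control medium only, with the overexpressor higher (12.8% of all tested genes were called in that direction there). A further 383 (38.3%) were called on PEG only, with the overexpressor lower (5.30% of all tested genes), and 126 were called on both media with opposite signs. In 51 genes neither genotype difference passed the test, and in 19 both differences were called with the same sign but different sizes. Of the 873 genes with a more positive response, 423 (48.5%) were called lower in the overexpressor on control medium only (7.56% of all tested genes), 306 (35.1%) called higher on PEG only (9.19%), 77 called on both media with opposite signs, 58 on neither and 9 on both with the same sign. The shares of all tested genes given here count every gene called in that direction on that medium, whatever its call on the other. They are therefore wider than the classes called on 1 medium only, whose shares over all tested genes are not given. For comparison, a genotype difference was called in 14.5% of tested genes on PEG and in 20.3% on control medium. A difference called on 1 medium only is not thereby shown to be absent on the other.

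The group medians of each class follow in part from the sorting, which used these libraries, and are given as a description. In the 421 negative genes of the control-medium class, the median was 8.32 FPKM in the overexpressor on PEG, 8.94 in overexpressor controls, 9.47 in WT on PEG and 3.12 in WT controls, so that the median was lowest in the WT controls and the other 3 lay close together. In the 383 negative genes of the PEG class the medians were 4.19, 2.28, 13.9 and 1.78 FPKM in the same 4 groups, so that the median was highest in wild type on PEG. In the 423 positive genes of the control-medium class they were 8.74 FPKM in the overexpressor on PEG, 9.63 in overexpressor controls, 7.04 in WT on PEG and 17.3 in WT controls. In the 306 positive genes of the PEG class they were 10.9, 12.4, 5.92 and 14.5 FPKM in the same order. The negative PEG class kept a median PEG change of 0.30 in the overexpressor, against 1.71 in wild type, while the negative control-medium class had medians of -0.07 in the overexpressor and 1.07 in wild type.

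**Figure D2:**
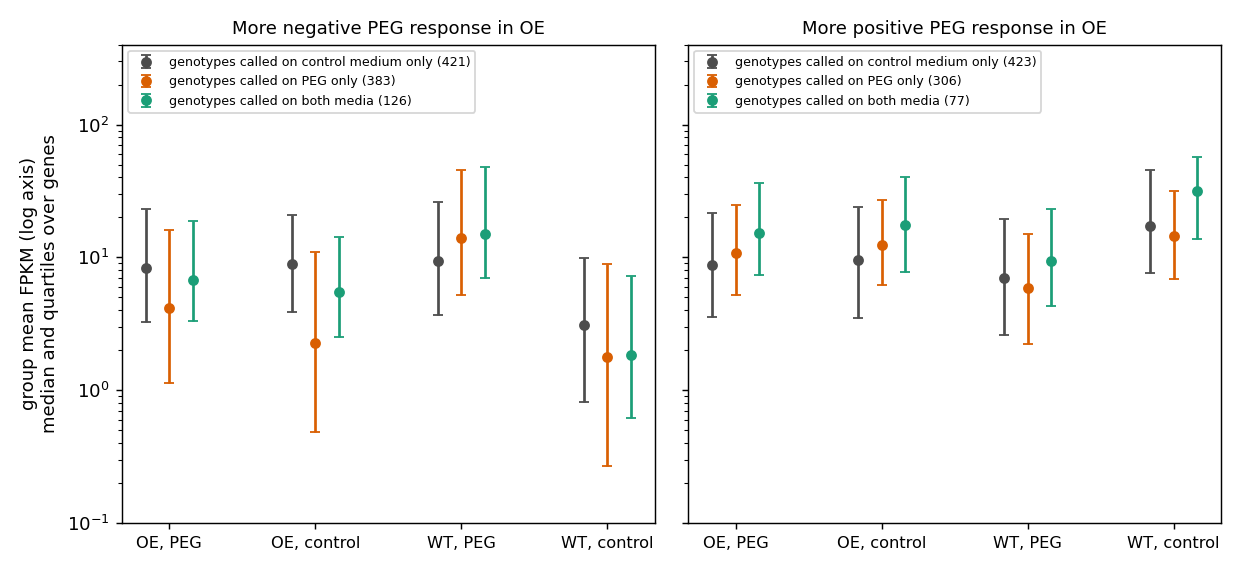
Median and quartiles over genes of the group mean FPKM (log axis), for interaction genes sorted by the medium on which the genotype difference was called, with the number of genes in brackets. On the left, the class called on control medium has its lowest median in WT controls (3.12 FPKM) and the class called on PEG its highest in WT on PEG (13.9 FPKM).

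The split between media among the largest interactions is given by direction, with no test of the difference. Of the 223 genes at -2 or below, 69 were called on control medium only, 99 on PEG only and 54 on both. Over all tested genes, the overexpressor was called higher on control medium in 12.8% and lower on PEG in 5.30%. Of the 31 genes at 2 or above, 18 were called on control medium only, 3 on PEG only and 9 on both. Over all tested genes, the overexpressor was called lower on control medium in 7.56% and higher on PEG in 9.19%. The share of all tested genes in each of these classes is not given. Expressed per gene, the PEG side made up a median of 48.9% of a negative interaction (quartiles 16.9% and 81.0%) and 45.5% of a positive one (quartiles 22.0% and 69.0%). In the 12 fits that left out 1 library, the PEG class made up 32.0% to 46.5% of the calls and the control-medium class 36.3% to 53.0%. The PEG class was the larger of the pair in 1 of these fits, without library 2 of the WT controls (46.5% against 36.3%).

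**Figure D3:**
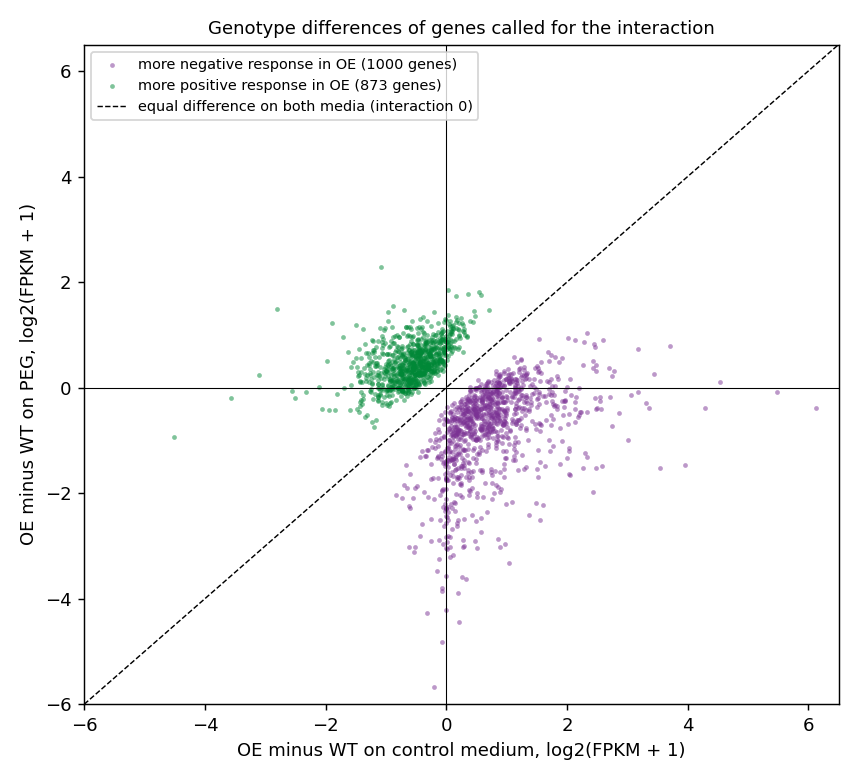
Overexpressor minus wild type on control medium (x axis) and on PEG (y axis), in log2(FPKM + 1), for the 1873 genes called for the interaction, coloured by its direction. Points lie off the dashed line of equal differences by construction. The more negative genes extend to the right along the x axis (a difference on control medium) and down the y axis (a difference on PEG).

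The shape of each gene, read from the same libraries that chose it, is given as a description. The group mean farthest from the mean of the other 3 was wild type on PEG in 482 and the WT controls in 484 of the 1000 negative genes, and an overexpressor group in 34. In the 873 positive genes it was wild type on PEG in 377, the WT controls in 466 and an overexpressor group in 30. Over all tested genes it was wild type on PEG in 33.9%, the WT controls in 36.9% and an overexpressor group in 29.2%. The overexpressor on control medium was nearer to wild type on PEG than to the WT controls in 49.3% of the negative and 50.5% of the positive genes, against 46.7% of all tested genes.

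The position of the overexpressor can also be read on the wild-type response itself, with the WT control mean as 0% and the WT mean on PEG as 100%. For the 970 negative interaction genes with a called WT response, the overexpressor stood at a median of 54.5% on PEG (quartiles 33.5% and 80.7%) and at 47.0% on control medium (quartiles 14.5% and 88.4%). For the 848 positive genes it stood at 58.1% on PEG (quartiles 35.9% and 80.2%) and 49.8% on control medium (quartiles 27.3% and 74.7%). The medians on both media were thus near the middle of the wild-type range. The spread between genes was wider on control medium than on PEG in negative genes and differed little in positive ones. These medians pool the classes by medium. The median genotype difference on control medium was 0.17 in the negative PEG class, where the WT change was 1.71. It was 0.99 in the negative control-medium class, where the WT change was 1.07. In 128 negative and 94 positive genes the overexpressor on PEG went beyond the level of wild type on PEG. These percentages use the WT libraries that also chose the genes.

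Sorted by the responses, most interaction genes had a called WT response that was smaller or of the other sign in the overexpressor. In 1169 genes the overexpressor's fold change had the sign of the called WT response and was smaller, and in 647 it had the other sign. The WT response was called in 7147 tested genes, and the median PEG change over all tested genes was -0.05 in the overexpressor. How many of the 7147 had a smaller or opposite change in the overexpressor is not given. The 2 classes are therefore not shown to be particular to the interaction genes. Of the 647 interaction genes with the other sign, 5 were called in both genotypes. In 18 genes the response was called in the overexpressor only, and in 37 in neither genotype. In 171 of the 1873 genes the overexpressor's own response was called, against 2.08% of all tested genes, and in 1818 that of wild type, against 28.6%. Of all tested genes, PEG raised 1.54% and lowered 0.537% in the overexpressor, and in wild type it lowered 16.6% and raised 2994 genes. These classes share libraries with the interaction, so the counts describe it.

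The 5 genes with called PEG responses of opposite sign are represented here by 4, chosen after their values were seen. Potri.006G068100.v3.1 had 0.531, 0.534 and 0.897 FPKM in the overexpressor on PEG, 2.51, 2.85 and 2.41 in overexpressor controls, 1.22, 0.859 and 1.10 in WT on PEG and 0, 0 and 0.093 in WT controls. It fell by 1.12 in the overexpressor and rose by 1.00 in wild type, with limma adjusted p of 0.00157 and 0.00026. No libraries of the 2 media overlapped in either genotype.

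Potri.003G131600.v3.1 averaged 2.46 ± 0.953 FPKM in the overexpressor on PEG, 9.62 ± 4.46 in overexpressor controls, 6.86 ± 1.71 in WT on PEG and 2.15 ± 1.00 in WT controls (SD, n = 3 each). Its interaction was -2.92 (SE 0.46, limma adjusted p 0.00311). The PEG changes behind it were -1.57 in the overexpressor and 1.35 in wild type (limma adjusted p 0.0277 and 0.00788). In the other direction, Potri.003G116000.v3.1 had 47.7, 49.6 and 48.5 FPKM in the overexpressor on PEG, 35.4, 37.3 and 37.3 in overexpressor controls, 35.5, 41.7 and 37.4 in WT on PEG and 55.9, 51.1 and 50.0 in WT controls. It was the best expressed of the 4, and its PEG changes were modest, 0.40 in the overexpressor and -0.45 in wild type (limma adjusted p 0.0264 and 0.00143). Potri.001G273500.v3.1 averaged 4.05 ± 0.249 FPKM in the overexpressor on PEG, 2.199 ± 0.485 in overexpressor controls, 3.06 ± 0.797 in WT on PEG and 4.85 ± 0.315 in WT controls (SD, n = 3 each), an interaction of 1.21 (SE 0.22, limma adjusted p 0.00639). For this last gene the PEG changes were 0.67 in the overexpressor and -0.54 in wild type (limma adjusted p 0.046 and 0.0183). Each setting refit libraries that also chose the genes, and the interaction of these 4 genes stayed called under every setting that tested it. Whether their separate PEG responses stayed called under those settings is not given.

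In 2 genes the overexpressor's response was the larger one of the same sign on the log2(FPKM + 1) scale, and both calls were lost under some settings. They were chosen after their values were seen. Potri.002G049500.v3.1 had 13.9, 15.4 and 13.1 FPKM in the overexpressor on PEG, 0.890, 0.928 and 0.648 in overexpressor controls, 3.73, 4.87 and 4.72 in WT on PEG and 0.067, 0.213 and 0.066 in WT controls. PEG raised it by 3.05 in the overexpressor and by 2.28 in wild type (limma adjusted p 2.46e-07 and 2.83e-07), an interaction of 0.77 (adjusted p 0.0259). The WT controls held 2, 6 and 2 reads, and the direction turned with a pseudocount of 0.1 (-0.50, limma adjusted p 0.485) and with limma-voom on recovered reads (-1.17, adjusted p 0.206). Which genotype had the larger response to PEG for this gene thus depends on the value added to FPKM. Potri.008G139100.v3.1 averaged 6.28 ± 0.666 FPKM in the overexpressor on PEG, 1.37 ± 0.574 in overexpressor controls, 4.75 ± 1.19 in WT on PEG and 2.90 ± 0.210 in WT controls (SD, n = 3 each). PEG raised Potri.008G139100.v3.1 by 1.64 in the overexpressor and by 0.54 in wild type (limma adjusted p 0.000594 and 0.0399). The overexpressor was lower on control medium by 0.74 (limma adjusted p 0.0139), and the difference of 0.36 on PEG did not pass the test (adjusted p 0.217). Its interaction of 1.10 (SE 0.25, limma adjusted p 0.0231) missed the threshold in 6 of 21 alternative settings, with adjusted p of up to 0.173.

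Few genes went between very low and clear expression across the groups, by limits chosen after values were seen. With off meaning under 1 FPKM in all 3 libraries of a group and on meaning at least 5 FPKM in all 3, 21914 of 35907 genes had a clear state in all 4 groups. Of these, 12510 were on and 9396 off throughout, and 8 changed state, 7 of them called for the interaction (7.50% of all tested genes were called). Among the 8, 4 were off only in WT controls, with medians of 15.3 FPKM in the overexpressor on PEG, 24.4 in overexpressor controls, 32.9 in WT on PEG and 0.281 in WT controls. Another 2 genes were on only on PEG, in both genotypes, 1 gene was on only in WT on PEG and 1 only in WT controls. A gene whose state differs in only 1 group has unequal PEG responses by that definition, so its call follows largely from the sorting. Of the 21914 genes with a clear state in all 4 groups, 0 were on in an overexpressor group and off in both WT groups, and genes with an intermediate level in any group were not counted.

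Calls were spread over the range of expression levels, while negative calls were more frequent among low genes, which was not tested. In 5 equal bins of the mean log2 level over all libraries, 7.15%, 7.19%, 7.53%, 7.01% and 8.63% of genes were called from the lowest to the highest. In the lowest bin 261 of the 357 calls were negative, and in the highest 196 of 431. A gene that passed the filter on low values only through 1 group where it is high had to differ between groups, which bears on the lowest bin. In 5 equal bins of the recovered gene length the called share was 8.90%, 8.66%, 7.95%, 6.85% and 5.13% from the shortest to the longest genes, and the median SE of the interaction was 0.30, 0.22, 0.20, 0.19 and 0.18 in the same bins. The median length was 1535 bases for negative calls, 1715 for positive calls and 1795 for genes not called.

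Interaction genes with neighbouring identifiers went the same way more often than tested genes had such a neighbour, a comparison made after values were seen and not tested. Identifiers were ordered as numbered in the files, within the same prefix. Of the negative interaction genes, 16.5% had a directly neighbouring identifier that was also negative, against 5.53% of all tested genes with such a neighbour, and 3.1% had a positive neighbour. Of the positive genes 11.8% had a positive neighbour, against 5.18% of all tested genes, and 3.6% a negative one. Runs of 3 or more consecutive identifiers with calls of 1 direction numbered 15 negative runs with 49 genes and 2 positive runs with 9 genes. Neighbouring genes can be near-identical copies or overlap (Potri.019G065100.v3.1 and Potri.019G065200.v3.1 share a recovered length of 1516 bases), and reads shared between them would make their values move together, which was not tested.

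The longest run in each direction held 5 genes, and both are described here because of their length, chosen after their values were seen. The negative run went from Potri.019G064700.v3.1 to Potri.019G065200.v3.1, with interactions from -2.30 to -3.39. In each of the 5 genes all 3 WT libraries on PEG exceeded the other 9 libraries. Its last gene had 2.89, 3.53 and 6.44 FPKM in the overexpressor on PEG, 1.84, 0.769 and 0.396 in overexpressor controls, 43.7, 27.4 and 43.1 in WT on PEG and 0.335, 0.588 and 0.219 in WT controls. Library 4 of the overexpressor on PEG was the highest of its group in each of the 5 genes. The positive run went from Potri.001G175800.v3.1 to Potri.001G176200.v3.1, with interactions from 1.19 to 3.38. In each of its genes the 3 WT controls exceeded the other 9 libraries. Its last gene had 2.11, 1.21 and 4.83 FPKM in the overexpressor on PEG, 9.66, 7.83 and 5.95 in overexpressor controls, 2.24, 1.58 and 6.15 in WT on PEG and 100.2, 167 and 63.0 in WT controls. All 5 genes of the negative run were in the class called on PEG only, and all 5 of the positive run in the class called on control medium only.

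**Figure D4:**
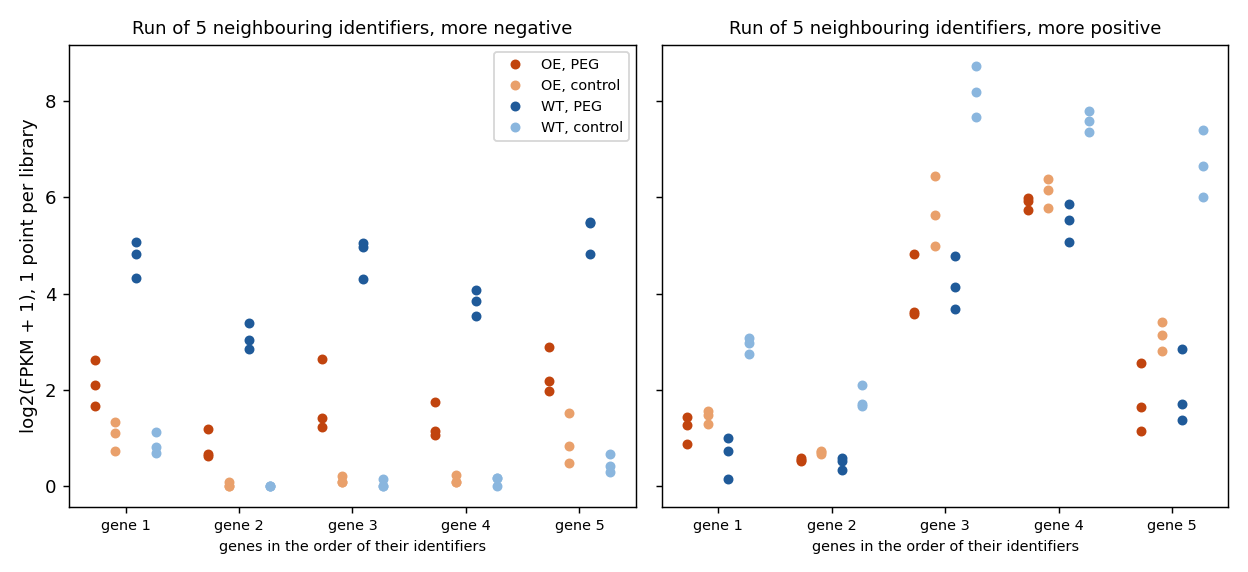
Expression in log2(FPKM + 1) of the 5 consecutive identifiers of the longest negative run (left) and positive run (right), 1 point per library, with the overexpressor (OE) left of wild type (WT) for each gene. WT on PEG is the high group in each gene on the left and the WT controls in each gene on the right.

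Libraries that took no part in choosing the genes fell nearest to their own group more often in wild type than in the overexpressor. For each library, genes were called from the other 11, and the group mean nearest to the library was found on the log2 scale. An overexpressor library lay nearest to its own group in 39.2% to 46.3% of the called genes, against 26.3% to 39.0% of all tested genes. A WT library lay nearest to its own group in 54.3% to 84.2% of the called genes, against 38.9% to 52.2% of all tested genes. The lowest WT shares were those of library 1 of the controls (54.3%) and library 2 on PEG (60.6%), and leaving these out gave 2050 and 1608 interaction calls. By their medians, called genes have the WT groups as extremes and the overexpressor groups close together. The overexpressor shares were also mostly lower over all tested genes (26.3% to 39.0% against 38.9% to 52.2%). What part the choice of genes plays in the lower shares was not tested. Between the genotypes on the same medium, overexpressor libraries were nearer to their own in 66.5% to 76.2% of called genes (57.2% to 67.8% of all tested). For WT libraries these shares were 62.8% to 89% (58.7% to 71.9%).

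**Figure D5:**
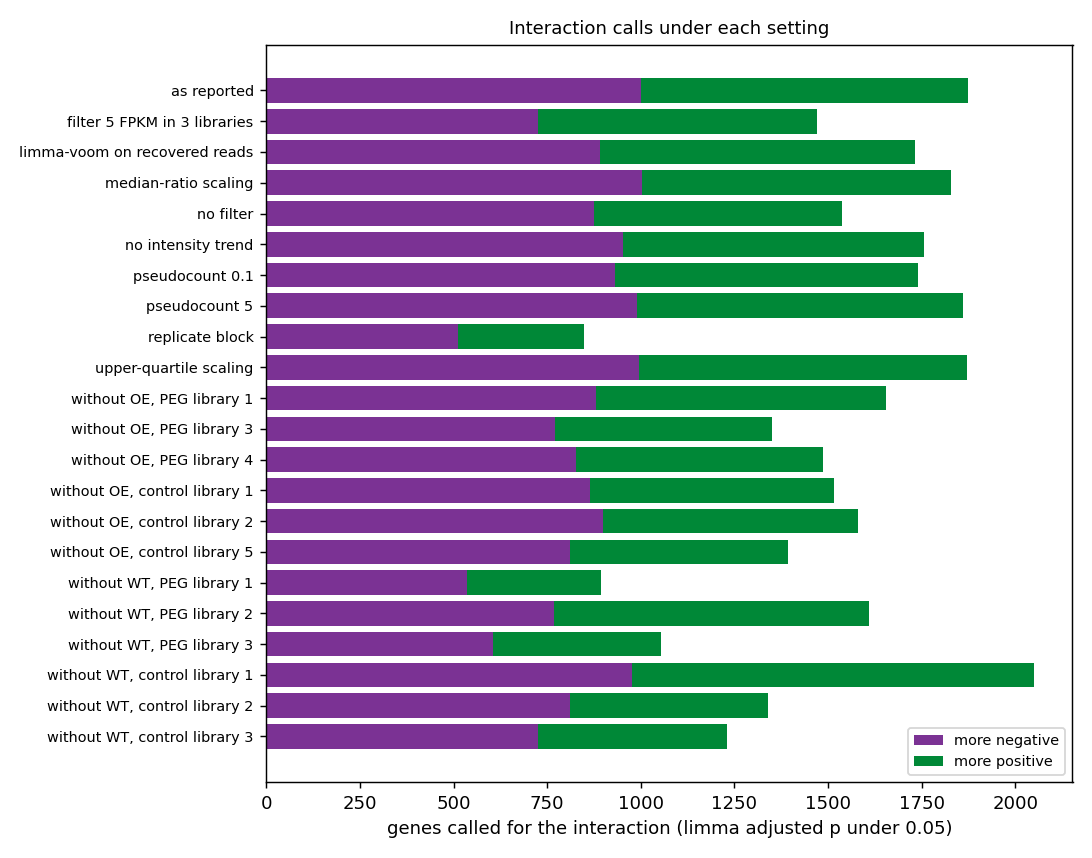
Number of genes called for the interaction in each direction (bars start at 0), as reported and under each alternative, with libraries left out listed from the overexpressor (OE) on PEG to the wild-type (WT) controls. The lowest counts are 848 with a replicate block and 894 without library 1 of WT on PEG, and the highest is 2050 without library 1 of the WT controls.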

How the data were processed

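Root RNA was extracted with CTAB and made into Illumina TruSeq libraries, per the labels' protocols. The deposited files hold 1 value per gene and library in FPKM, a unit judged from the values because the headers name none, and RPKM could not be told apart from it. Bowtie2 2.2.3 and HISAT2 2.1.0 are named without roles in the submitters' processing notes, the counting tool and annotation being not given in the sources used here, nor the genome build. Read numbers were worked back from FPKM steps, and 100% of 370737 nonzero values came out whole within 0.01 of a read. The length of each gene was chosen as the shortest that made its values whole, so this share is in part fixed by the method.

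Groups followed the tissue labels. The 4 group means were fitted with limma 3.58.1 in R 4.3.3 (trended prior, two-sided, 8 residual degrees of freedom) to log2(FPKM + 1) of genes with at least 1 FPKM in 3 libraries, with p-values adjusted by Benjamini-Hochberg over 24976 genes. The code of the fit was run on simulated reads with a constant spread, in which only wild type on PEG was changed, in well covered genes. That setting is simpler than these data, and its outcome is not given here. Summaries used Python 3.11.15, numpy 2.4.6 and pandas 2.3.3. Named genes were the 2 most negative and 2 most positive called interactions by moderated t, with an absolute value of at least 1 and 5 FPKM or more on average in the highest group. None of the 10 genes named by rule or from small classes shares its recovered length with a neighbouring identifier. Within runs of identifiers, Potri.019G065200.v3.1 and its neighbour Potri.019G065100.v3.1 share a recovered length of 1516 bases. Potri.013G100700.v3.1 and its neighbour Potri.013G100800.v3.1, also in a run, share one of 1283 bases. The comparison and lists were chosen with earlier results of these data known. Gene lists and markers were not used, since no table paired identifiers with names. Classes by medium, states of expression, runs of identifiers, held-out shares and genes of small classes were chosen after values were seen. Alternatives changed the pseudocount, filter, scaling, prior and test, added a replicate block or left out 1 library. No counting interval is given, since precision was judged from the spread between libraries.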

Additional observations from a re-analysis of the deposited data

Results flagged for a closer look

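Each result here is listed because the PEG response differed between the genotypes by the interaction test. The test called 1873 genes. Among the 4 genes named by rule, the interaction was -3.95 for Potri.010G072600.v3.1, -4.06 for Potri.014G029400.v3.1, 1.23 for Potri.019G090200.v3.1 and 2.68 for Potri.005G232400.v3.1. Among genes with called responses of opposite sign it was -2.12 for Potri.006G068100.v3.1, -2.92 for Potri.003G131600.v3.1, 0.84 for Potri.003G116000.v3.1 and 1.21 for Potri.001G273500.v3.1. Among genes with the larger response in the overexpressor on the log2(FPKM + 1) scale it was 0.77 for Potri.002G049500.v3.1 and 1.10 for Potri.008G139100.v3.1. Groups of 3 libraries were not searched for outlying samples.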

How the results depend on the processing

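Under other pseudocounts, filters, scalings, priors and limma-voom the number of interaction genes was 1470 to 1872, and 43% (no filter) to 50.6% (5 FPKM filter) of them were positive, against 46.6% as reported. Leaving out 1 library gave 894 to 2050 genes, 536 to 977 negative and 358 to 1073 positive, and positive calls were the majority without library 2 of WT on PEG (52.2%) and without library 1 of the WT controls (52.3%). By response, these fits gave 609 to 1220 smaller in the overexpressor, 264 to 738 of opposite sign, 0 to 2 larger, 6 to 27 called in the overexpressor only and 15 to 63 with no called response. By medium, they gave 287 to 769 called on PEG only, 474 to 920 on control medium only and 80 to 198 on both. The number of genes with a larger response was 1 with the 5 FPKM filter, 1 with limma-voom, 1 without a filter and 0 with a pseudocount of 0.1. Genes called in the overexpressor only were 11 with limma-voom, and genes with no called response 19 with the 5 FPKM filter and 22 with a pseudocount of 0.1. The interaction of Potri.002G049500.v3.1 reversed to -1.17 with limma-voom and -0.50 with a pseudocount of 0.1, so its sign depends on the value added to FPKM. Causes of the other changes between settings were not tested.

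A replicate block by library number called 848 genes, 512 negative and 336 positive. Number 4 (overexpressor on PEG) and number 5 (overexpressor control) each belong to a single library. The block gives such a library its own term, so it adds nothing to the contrasts, and fewer residual degrees of freedom remain. The fall in calls therefore mixes the block with the loss of these libraries. Its classes were 506 smaller, 316 opposite, 0 larger, 9 in the overexpressor only, 17 with no called response, 348 on PEG only, 368 on control medium only and 99 on both. The correlation of deviations from group means was -0.23 to 0.26 over 12 same-numbered pairs and -0.32 to 0.34 over 42 others. The labels do not say what the numbers mean, and whether same-numbered libraries share a batch was not settled by these values. The planned edgeR and DESeq2 fits on recovered reads were not run, nor were the alternatives for gene lists. The depth of 10566926 to 12053894 reads limits what can be said of genes with a few reads in a group.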
